A study of Mus musculus with 3 samples.

Results

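The genes described here encode subunits of voltage-gated and related ion channels. They were taken as all non-control probes whose gene symbol began with Kcn, Cacn or Clcn, or with Scn and a digit, which gave 202 probes of 144 genes among 39429 probes. A probe was used for ratios if the scanner software marked it as well above background in the same channel on all 3 arrays. That left 86 probes of 68 genes, among 17460 genes tested in all. Of the 17460, 12995 have a symbol and the rest are counted by accession. The array files hold an accession and no gene name for each probe, so the pattern was applied to the symbols that the accessions have in a RefSeq table.

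RNA came from lower-limb skeletal muscle of mFoxO1KO mice, in which Foxo1 is deleted inducibly and in skeletal muscle alone, and of control mice. All were male C57BL/6, and both genotypes ate an AIN93G diet with 0.625 g/kg doxycycline between 8 and 14 weeks of age. The transgene that drives the deletion is not given in the sources used here. There were 3 muscle RNA samples of each genotype, 1 of each on every one of 3 arrays of 2 colours, with mFoxO1KO RNA in Cy5 and control RNA in Cy3. The labels do not say whether each sample is a separate mouse, so the tests measure the spread between these samples. No dyes were swapped, so a dye effect of a single probe and the genotype cannot be told apart in any ratio below. All 11 muscle fibre markers were measured, 10 of them above background in every control muscle and the slow myosin gene Myh7 in 2. Foxo1 itself had normalised log2 intensities of 9.83, 10.17 and 9.96 in mFoxO1KO muscle, against 11.33, 12.59 and 12.23 in control muscle.

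Ion channels let muscle fibres fire and relax. Sodium channels carry the upstroke of the action potential, the calcium channel of the transverse tubule senses the voltage and triggers calcium release, and chloride and potassium channels bring the membrane back to rest. Each pore is made by a large alpha subunit or by several smaller ones, and auxiliary subunits set how fast it opens, inactivates and reaches the surface. FoxO1 is a transcription factor that is held out of the nucleus by insulin signalling and binds forkhead sites in DNA.

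Of the 68 channel genes tested, 2 rose, 1 fell and 65 did not pass an adjusted p of 0.05. The gene that fell was Kcnab1, a beta subunit that speeds inactivation of Shaker-type potassium channels. Kcna4, the pore of a rapidly inactivating potassium channel of that type, and Scn2b, a sodium channel beta subunit, rose. The share of channel genes past the threshold was 4.41%, beside 2.75% of all genes tested (2.06% higher and 0.699% lower). At an unadjusted p under 0.05 there were 18 channel genes, or 26.5%, beside 26.8% of all genes. The ratios had the same sign on all 3 arrays for 33 channel genes, or 48.5%, beside 52.4% of all genes. Of these 33, 17 were above 0 and 16 below. Some of the 17, such as Kcnd3, Kcnj15 and Kcnk15, passed the filter through mFoxO1KO signal alone, so the split is no result. The median log2 ratio of mFoxO1KO over control was 0.0083 over the channel genes and 0.0068 over all genes. The family as a whole thus stood at the middle of the array. With signal required in both channels, 57 channel genes were left, with a median of -0.024 beside 0.0018 over all genes.

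**Figure D1:**
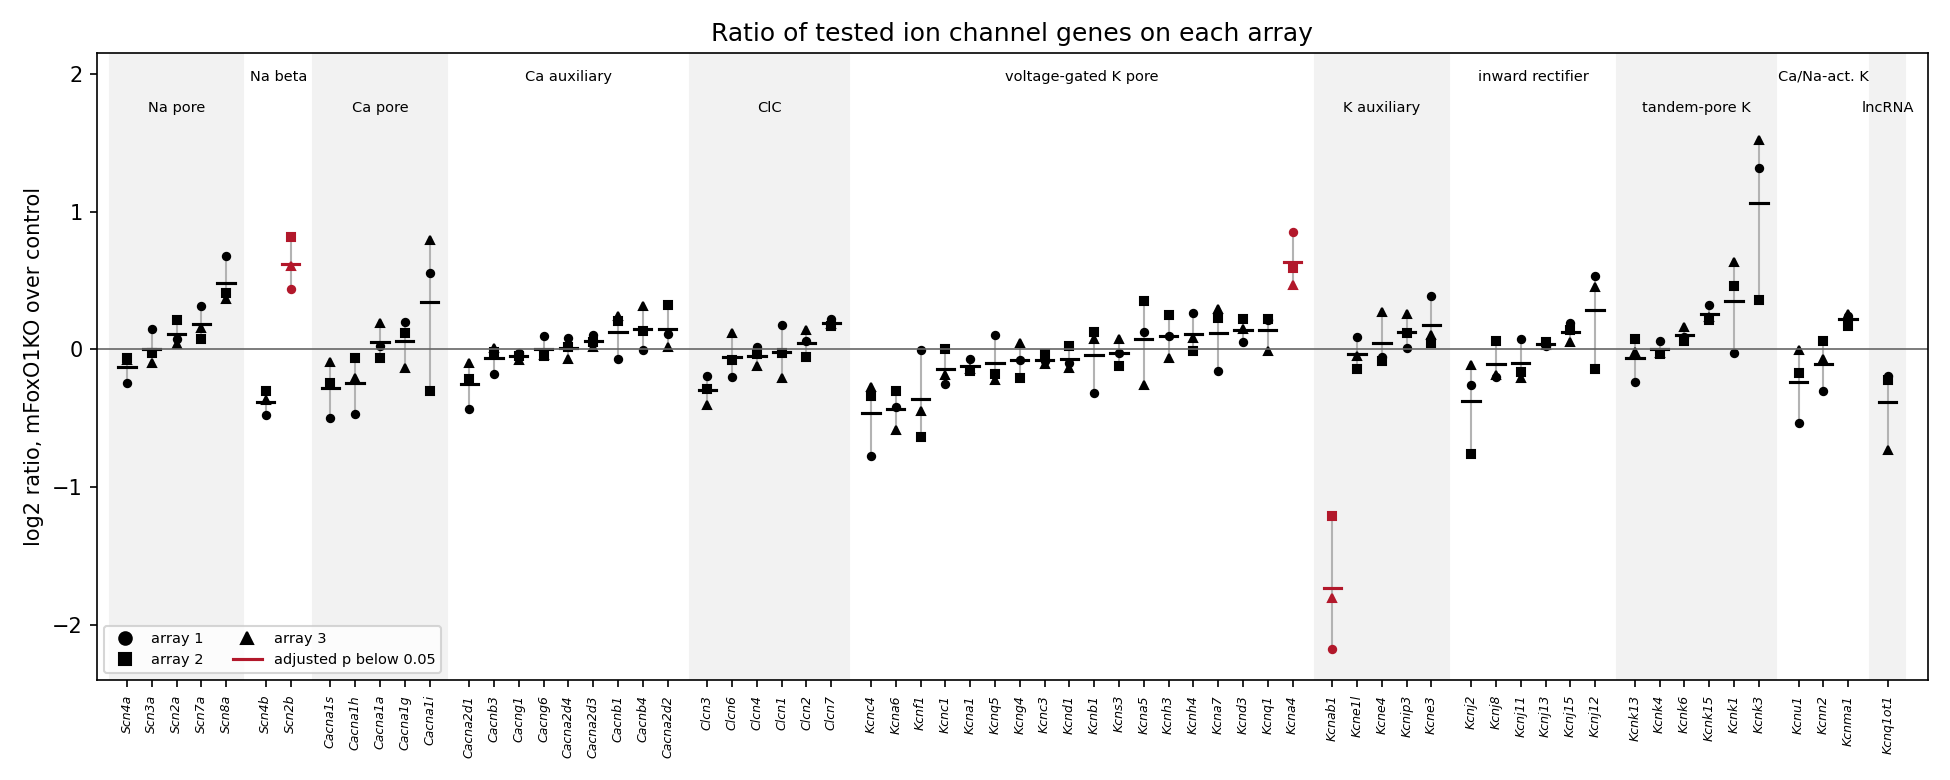
Log2 ratio of mFoxO1KO over control muscle (vertical axis) for 66 of the 68 channel genes tested (horizontal axis), ordered by role. Each symbol is 1 array, the short bar is the mean of 3 arrays, the grey line joins the lowest and highest array, and red marks an adjusted p below 0.05. Most genes lie close to 0, with Kcnab1 far below and Kcna4 and Scn2b above. Kcnk3 has the highest mean, at 1.06, and did not pass. For Kcnd3, Kcnj15 and Kcnk15 the control signal was not above background, so their points are no measured ratio.

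The 5 promoter windows of the 3 genes past the threshold are shown because these are the channel genes whose transcript level differed. Each runs from 250 bases before to 50 bases after an annotated transcription start, 5′ to 3′, from RefSeq on GRCm38.p6. Capitals mark E-boxes (CANNTG), the sites of basic helix-loop-helix factors such as MyoD. Which of the 3 Kcnab1 starts the array's probe reports on is not known here.
Kcnab1, start window 1, chr3:64948962-64949261, + strand: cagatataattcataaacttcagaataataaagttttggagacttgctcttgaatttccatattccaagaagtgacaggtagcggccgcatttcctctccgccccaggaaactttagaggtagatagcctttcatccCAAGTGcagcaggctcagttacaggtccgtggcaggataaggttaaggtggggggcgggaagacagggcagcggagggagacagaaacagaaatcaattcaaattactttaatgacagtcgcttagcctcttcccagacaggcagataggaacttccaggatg
Kcnab1, start window 2, chr3:65108764-65109063, + strand: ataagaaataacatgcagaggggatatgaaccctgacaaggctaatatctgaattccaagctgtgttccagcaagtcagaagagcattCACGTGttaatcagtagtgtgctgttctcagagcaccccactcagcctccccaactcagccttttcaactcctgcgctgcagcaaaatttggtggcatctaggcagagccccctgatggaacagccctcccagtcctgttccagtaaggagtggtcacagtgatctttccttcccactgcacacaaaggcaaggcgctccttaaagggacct
Kcnab1, start window 3, chr3:65187853-65188152, + strand: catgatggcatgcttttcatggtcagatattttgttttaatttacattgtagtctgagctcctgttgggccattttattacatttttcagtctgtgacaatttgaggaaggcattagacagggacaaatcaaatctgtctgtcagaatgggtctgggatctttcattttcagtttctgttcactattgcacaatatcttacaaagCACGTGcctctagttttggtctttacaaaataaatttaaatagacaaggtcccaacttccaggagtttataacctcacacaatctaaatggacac
Kcna4, start window 1, chr2:107290339-107290638, + strand: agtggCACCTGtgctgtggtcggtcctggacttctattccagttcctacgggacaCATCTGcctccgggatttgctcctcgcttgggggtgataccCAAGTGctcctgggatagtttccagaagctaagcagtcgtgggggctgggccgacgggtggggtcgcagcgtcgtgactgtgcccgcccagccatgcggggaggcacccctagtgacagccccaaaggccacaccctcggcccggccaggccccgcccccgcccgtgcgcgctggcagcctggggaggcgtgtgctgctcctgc
Scn2b, start window 1, chr9:45117626-45117925, + strand: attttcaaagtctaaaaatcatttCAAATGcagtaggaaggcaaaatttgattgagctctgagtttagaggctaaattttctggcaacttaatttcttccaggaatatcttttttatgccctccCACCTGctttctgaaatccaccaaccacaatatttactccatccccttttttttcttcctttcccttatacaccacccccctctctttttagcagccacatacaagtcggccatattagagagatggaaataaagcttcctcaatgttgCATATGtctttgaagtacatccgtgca

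All 5 windows hold an E-box, as do 72.3% of the 32851 promoter windows in the RefSeq set. Both Kcna4 and Scn2b hold 3 and each Kcnab1 window 1. The forkhead core GTAAACA, or TGTTTAC as read on the other strand, is in none of the 5. It is in 0 of the 147 windows of the 107 channel genes on the array that have 1 in the set, beside 3.65% of all windows. The absence of these letters from 300 bases says nothing about binding elsewhere.

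Kcnab1 had the largest difference of any channel gene. Its probe, made to NM_010597, gave normalised log2 intensities of 7.59, 7.96 and 7.92 in mFoxO1KO muscle, against 9.76, 9.17 and 9.72 in control muscle. Every mFoxO1KO muscle was below every control muscle. The log2 ratios on the 3 arrays were -2.17, -1.21 and -1.80, and averaged -1.73 ± 0.49 (SD over 3 arrays). This is a level 30.2% as high as in control muscle (limma, adjusted p = 0.0368). Over the 19 alternative settings the log2 ratio ranged from -2.18 to -1.51, so the percent depends on the processing and on the arrays used. The array on which the ratio was nearest to 0 had the lowest control signal of the 3. The other beta subunit genes of this family, Kcnab2 and Kcnab3, were not above background on any array. Without replicate 3 the Kcnab1 ratio was -1.69 and its adjusted p 0.0623, while without replicates 1 and 2 in turn it was 0.0341 and 0.0486.

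Kcna4 was measured by 1 bright probe (NM_021275). It had 12.20, 12.25 and 12.26 in mFoxO1KO muscle, against 11.35, 11.66 and 11.79 in control muscle, on the same log2 intensity scale. The mFoxO1KO muscles were close to each other, and the control muscles were lower and more spread. The ratio was 0.64 ± 0.19, or 1.55-fold (limma, adjusted p = 0.0486). Scn2b (NM_001014761) had 7.98, 8.58 and 8.51 in mFoxO1KO muscle, against 7.54, 7.77 and 7.90 in control muscle. The groups did not overlap, although the lowest mFoxO1KO muscle was near the highest control muscle. Its ratio was 0.62 ± 0.19, or 1.54-fold (limma, adjusted p = 0.0487). Both adjusted p-values lay just under the threshold. Without replicate 2 they were 0.177 for Kcna4 and 0.171 for Scn2b, and without replicate 3 they were 0.0636 and 0.0885.

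**Figure D2:**
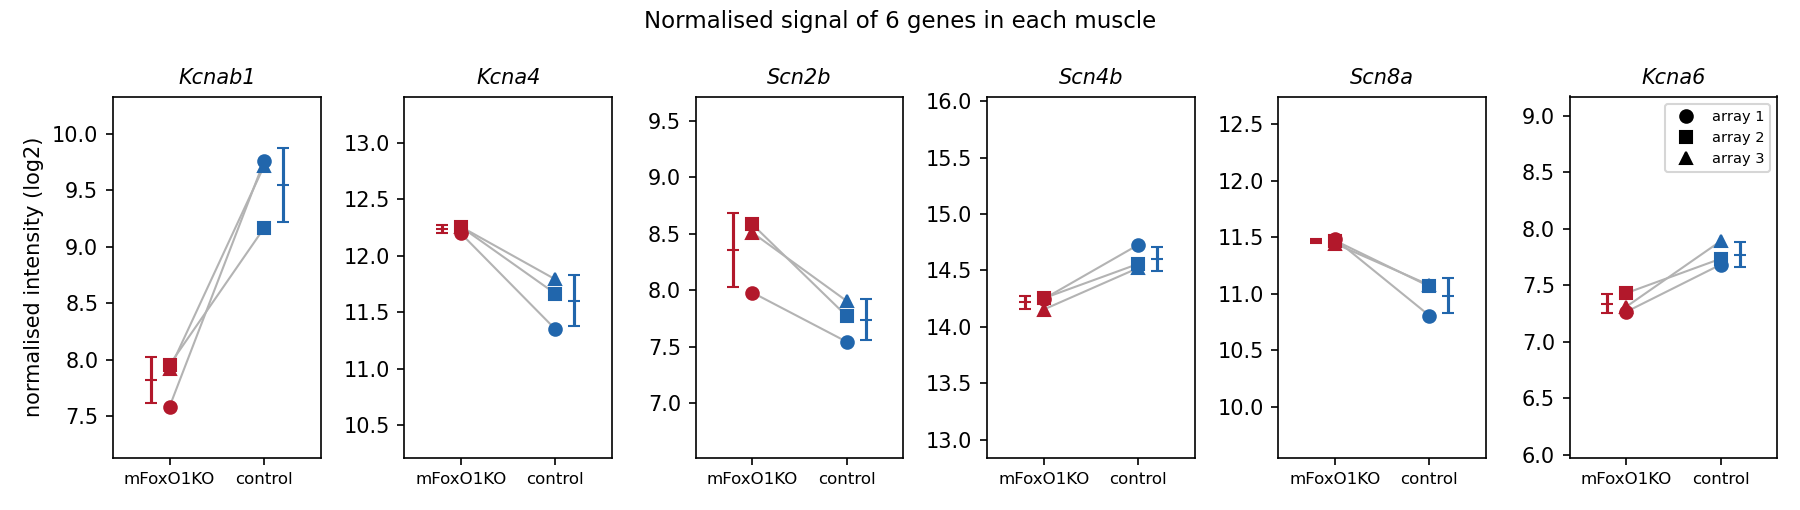
Normalised log2 intensity (vertical axis, 3.2 units in each panel) of 6 channel genes in mFoxO1KO muscle (red, left) and control muscle (blue, right). Symbols are single muscles, grey lines join the pair hybridised to 1 array, and bars give the mean and SD of 3. In all 6 panels every mFoxO1KO muscle lies on the same side of every control muscle, although Scn4b, Scn8a and Kcna6 did not pass the threshold. The 6 are the channel genes of smallest p, which favours such a separation, and its share over all genes was not counted.

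Among the sodium channel pores, the muscle isoform Scn4a had 9.38, 9.41 and 9.65 in mFoxO1KO muscle, against 9.63, 9.48 and 9.73 in control muscle. These ranges overlapped, and the ratio was -0.13 ± 0.10 with a 95% confidence interval of -0.29 to 0.04. Scn8a, best known from nerve, had 11.48, 11.47 and 11.44 in mFoxO1KO muscle, against 10.80, 11.06 and 11.08 in control muscle. Its ratio of 0.48 ± 0.17 did not pass (limma, adjusted p = 0.0562). The 2 other Scn8a probes were not above background in any muscle, so this value rests on 1 of 3 probes. Scn7a, a sodium sensor of glia, had 0.18 ± 0.12, and Scn2a, a brain isoform, 0.11 ± 0.09, both at dim signals. Both passed the filter through mFoxO1KO signal alone. None of the 6 pore genes tested passed.

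Of the 3 sodium channel beta subunits, 1 rose and 2 did not pass. Besides Scn2b, Scn4b had 14.25, 14.25 and 14.15 in mFoxO1KO muscle, against 14.73, 14.56 and 14.52 in control muscle. All mFoxO1KO muscles were below all control muscles, and the ratio was -0.38 ± 0.09 (limma, adjusted p = 0.0544). Scn4b thus lay on the other side of 0 from Scn2b.

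None of the calcium channel genes passed, with 5 pore and 9 auxiliary subunit genes tested. Cacna1s, the pore and voltage sensor of the muscle L-type channel, had 16.44, 16.35 and 16.72 in mFoxO1KO muscle, against 16.93, 16.59 and 16.82 in control muscle. The mFoxO1KO member was the lower of every pair, by 0.49, 0.24 and 0.09 on the log2 scale, but the ranges overlapped (mean ratio -0.28 ± 0.20, limma, adjusted p = 0.149). A second Cacna1s probe had -0.30, -0.13 and -0.11. Cacna2d1, the extracellular subunit of the same channel, had ratios of -0.43, -0.22 and -0.09, in the same order over the arrays as Cacna1s (mean -0.25 ± 0.17, adjusted p = 0.151). Its second probe had -0.42, -0.33 and -0.21. With arrays centred on their median in place of loess, both genes turned to above 0, at 0.14 for Cacna1s and 0.03 for Cacna2d1.

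The intracellular subunit Cacnb1 and the muscle gamma subunit Cacng1 had 0.12 ± 0.17 (interval -0.09 to 0.34) and -0.05 ± 0.02 (interval -0.19 to 0.09). Cacng6, a second muscle gamma subunit, had a ratio of 0.0054 and, with the leak channel Kcnk4 at 0.0027, was nearest to 0 among channel genes. Of the T-type pores, which open near the resting voltage, Cacna1h had -0.25 ± 0.20 and Cacna1g 0.06 ± 0.17. Cacna1i, the last of them, had 0.55, -0.30 and 0.79 on the 3 arrays, with a mean of 0.35 ± 0.58. A second, dimmer probe had -0.35, -0.10 and -0.12, so the direction for this gene differed between probes. Cacnb4 and Cacna2d2 both had a ratio of 0.15 at dim signals, and both passed the filter through mFoxO1KO signal alone.

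The 6 chloride channel and exchanger genes of the ClC family did not pass either. Clcn1, which carries most of the resting chloride conductance of muscle, had 9.90, 9.82 and 9.60 in mFoxO1KO muscle, against 9.72, 9.84 and 9.80 in control muscle. Its ratio was -0.02 ± 0.19, with an interval of -0.25 to 0.21. Clcn3, an exchanger of endosomes, had 12.50, 12.43 and 12.30 in mFoxO1KO muscle, against 12.69, 12.72 and 12.70 in control muscle, which did not overlap (-0.29 ± 0.11, limma, adjusted p = 0.0847). Its second probe had -0.11, -0.24 and -0.37. Clcn7, the exchanger of lysosomes, had 0.19 ± 0.02 with 3 nearly equal arrays (adjusted p = 0.116). The related endosomal gene Clcn4 and the surface channel gene Clcn2 had -0.05 ± 0.07 and 0.05 ± 0.10.

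Voltage-gated potassium pores were the most numerous role, with 40 genes on the array and 18 tested, of which Kcna4 rose and 17 did not pass. Kcna6, another Shaker-type pore, had 7.27, 7.43 and 7.31 in mFoxO1KO muscle, against 7.68, 7.74 and 7.89 in control muscle. These did not overlap, but the ratio of -0.43 ± 0.14 missed the threshold (limma, adjusted p = 0.0565), and the second Kcna6 probe was not above background anywhere. Kcnc4, a fast pore that opens at high voltage, had -0.46 ± 0.27 with no overlap between the groups (adjusted p = 0.096). Kcnc1, of the same subfamily, had -0.14 ± 0.13 by its brightest probe. A second Kcnc1 probe, made to another transcript, had -0.82, -0.35 and -0.37. Kcna7, a Shaker-type pore of heart and skeletal muscle, had 0.12 ± 0.24, and Kcnf1, a silent subunit that modifies other pores, -0.36 ± 0.32. Their second probes had mean ratios of -0.05 for Kcna7 and -0.0031 for Kcnf1. Kcnd3 was above background in no control muscle and in all mFoxO1KO muscles, through which alone it passed the filter. Its bound of 1.1-fold is the same as its plain ratio (limma, adjusted p = 0.225). The interval of that log2 ratio, -0.02 to 0.30, included 0, so no least rise is shown. For such bounds the control mean took, on each array, its own signal or the dimmest signal of any probe well above background, whichever was brighter.

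Auxiliary potassium channel subunits had 16 genes on the array and 5 tested, of which Kcnab1 fell and 4 did not pass. Kcne3, a small partner of several pores, had 0.18 ± 0.18 at dim signals, and its second probe 0.06. Both Kcne3 probes were above background in 2 of 3 control muscles, so they passed the filter through mFoxO1KO signal alone. Kcnip3, a calcium-binding partner of Kv4 pores, had 0.13 ± 0.12. Kcne1l had -0.03 ± 0.12.

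Inward rectifiers hold the resting potential or, in the case of ATP-sensitive channels, couple it to metabolism. None of the 6 tested passed. Kcnj2, a main strong rectifier of muscle, had 7.67, 7.30 and 7.28 in mFoxO1KO muscle, against 7.93, 8.06 and 7.40 in control muscle. The mean ratio of -0.38 ± 0.34 came largely from replicate 2, at -0.76 (adjusted p = 0.169). Kcnj12, the other strong rectifier measured, had 0.53, -0.14 and 0.46. Kcnj11, the pore of the muscle ATP-sensitive channel, had -0.10 ± 0.15, and Kcnj8, the pore of the vascular form, -0.11 ± 0.15. Kcnj15 was above background only in mFoxO1KO muscle, through which alone it passed the filter. Its bound of 1.09-fold is the same as its plain ratio (limma, adjusted p = 0.245). The interval of that log2 ratio, -0.03 to 0.28, included 0.

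Of the tandem-pore potassium channels, which leak at rest, 6 were tested and none passed. Kcnk3, an acid-sensitive leak channel that is also strong in brown fat, had 7.95, 7.12 and 8.69 in mFoxO1KO muscle, against 6.64, 6.75 and 7.18 in control muscle. The mFoxO1KO muscle of array 2 was below the control muscle of array 3, so the groups overlapped, although every array was above 0. At 1.06 ± 0.62, or 2.09-fold, its ratio was the largest rise in value among channel genes but did not pass (limma, adjusted p = 0.0807). Without replicate 2 it was 1.42 and passed (adjusted p = 0.0486). Kcnk15 was above background in every mFoxO1KO muscle and in no control muscle, and passed the filter through mFoxO1KO signal alone. Its plain log2 ratio of 0.26 ± 0.06 did not pass (limma, adjusted p = 0.0837). Its mean had a bound of 1.1-fold, which was not itself tested. Kcnk1 had -0.03, 0.46 and 0.63, and Kcnk6 0.10 ± 0.05.

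Adipocyte markers, like Kcnk3, had their lowest ratio on array 2. Of 11 adipocyte markers, 8 were tested, and none passed over all genes. Lep and Ucp1 were not tested, nor was Adipsin, an older name of Cfd. On array 2 the median log2 ratio of these 8 was 0.22, and arrays 1 and 3 had 2.89 and 1.84. Their summed normalised intensity ranged over 101739 to 205755 in mFoxO1KO muscle and over 40145 to 93259 in control muscle. The ratios of Kcnk3 on the same arrays were 1.31, 0.36 and 1.52, and those of Kcnj12 and of the brighter Cacna1i probe also had their lowest value on array 2. The second Cacna1i probe had its highest value there. Kcnma1, Clcn7, Kcnj2 and Kcnf1, among other channel genes, were lowest on array 2 too. This order is thus not particular to Kcnk3, Kcnj12 and Cacna1i, and the part of fat in their ratios was not tested. On array 2 the ratios of Kcnab1, Kcna4 and Scn2b were -1.21, 0.59 and 0.81. These genes were called over the same 3 arrays, which favours 1 sign on all of them. The part of fat in their ratios was not tested either. In whole muscle, fewer cells of a type and less RNA per cell cannot be told apart.

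**Figure D3:**
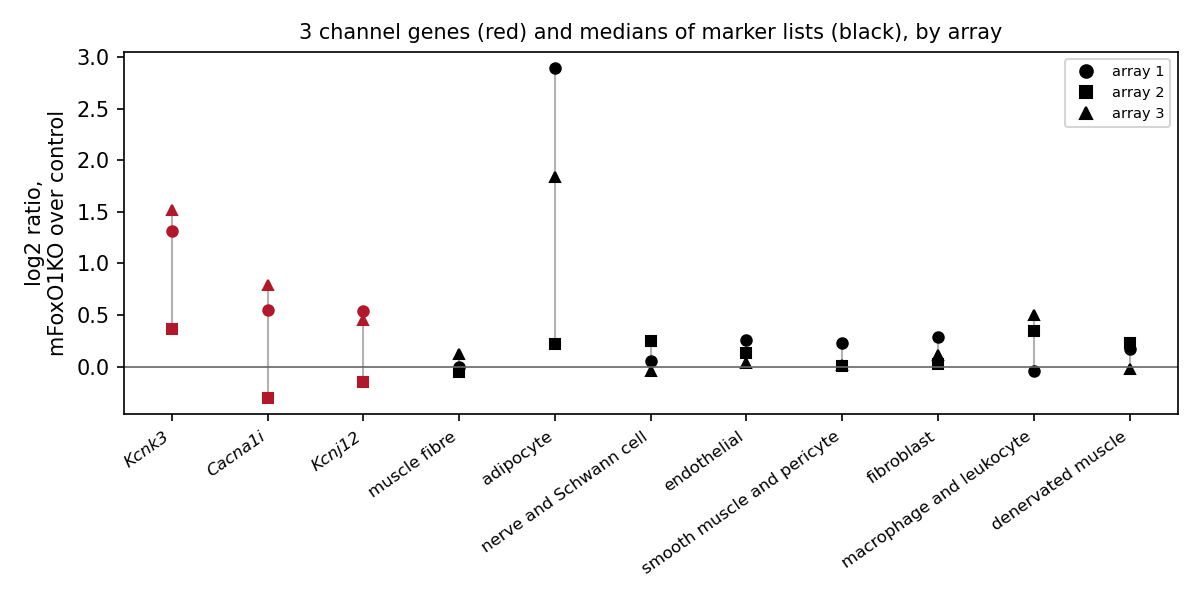
Log2 ratio of mFoxO1KO over control (vertical axis) on each array for 3 channel genes (red) and, as medians, for 8 marker lists (black). Kcnk3, Kcnj12 and the brighter Cacna1i probe are lowest on array 2, where the adipocyte median is 0.22, against 2.89 and 1.84 on arrays 1 and 3. The second Cacna1i probe, not drawn, had -0.35, -0.10 and -0.12 and was highest on array 2. Other channel genes not drawn, such as Kcnma1 and Clcn7, were also lowest on array 2.

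Markers of other cells had ratios nearer to 0. The median of the genes' mean ratios was 0.07 for 8 of 11 nerve and Schwann cell markers, 0.11 for 8 endothelial markers, -0.0073 for 8 smooth muscle and pericyte markers and 0.10 for 6 fibroblast markers. None of these markers passed. Macrophage and leukocyte markers had 0.16 over 5 of 8, and 1 of them, Cd14, rose. Emr1, listed but not tested under that name, is an older name of Adgre1, which was tested. Muscle fibre markers had 0.07 over 11, and 1 of them, the myosin light chain gene Myl1, fell. Genes known to rise in denervated muscle had a median of 0.18 over 9 of 10, and none passed. Kcnn3, a small-conductance calcium-activated channel with that reputation, was not above background in any muscle.

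Calcium-activated and sodium-activated potassium channels had 8 genes on the array and 3 tested, none past the threshold. Kcnma1, the large-conductance calcium-activated channel, had 10.19, 10.04 and 10.03 in mFoxO1KO muscle, against 9.94, 9.87 and 9.77 in control muscle. The groups did not overlap, and the ratio was 0.22 ± 0.05 (limma, adjusted p = 0.0981). Its probes did not point the same way. The other 2, made to other transcripts, had 0.02, -0.06 and 0.10, and -0.26, -0.12 and 0.06. Kcnn2, a small-conductance calcium-activated channel, had -0.11 ± 0.18. Kcnu1, known from sperm, had -0.24 ± 0.27. Kcnq1ot1 is no channel but a non-coding RNA of the imprinted Kcnq1 locus, matched by its own accession. It had 9.41, 9.82 and 8.92 in mFoxO1KO muscle, against 9.60, 10.05 and 9.64 in control muscle (-0.38 ± 0.30, adjusted p = 0.142).

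The 76 channel genes that were not tested had little or no signal. For 63 of them no probe was above background in either channel of any array. These included the neuronal and cardiac calcium channel pores Cacna1b, Cacna1c, Cacna1d, Cacna1e and Cacna1f, the brain gamma subunits Cacng2, Cacng3, Cacng4, Cacng5, Cacng7 and Cacng8, and the sensory neuron pores Scn10a and Scn11a. Kcnh1, Kcnh2 and the other Kcnh genes except Kcnh3 and Kcnh4 were also among them. Signal was present on 1 array for 3 genes, among them Kcna2 and Kcnmb4, and on 2 arrays for 9 genes, among them Scn1a and the glial rectifier Kcnj10. Clcn5 was above background on all 3 arrays but not in the same channel.

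**Figure D4:**
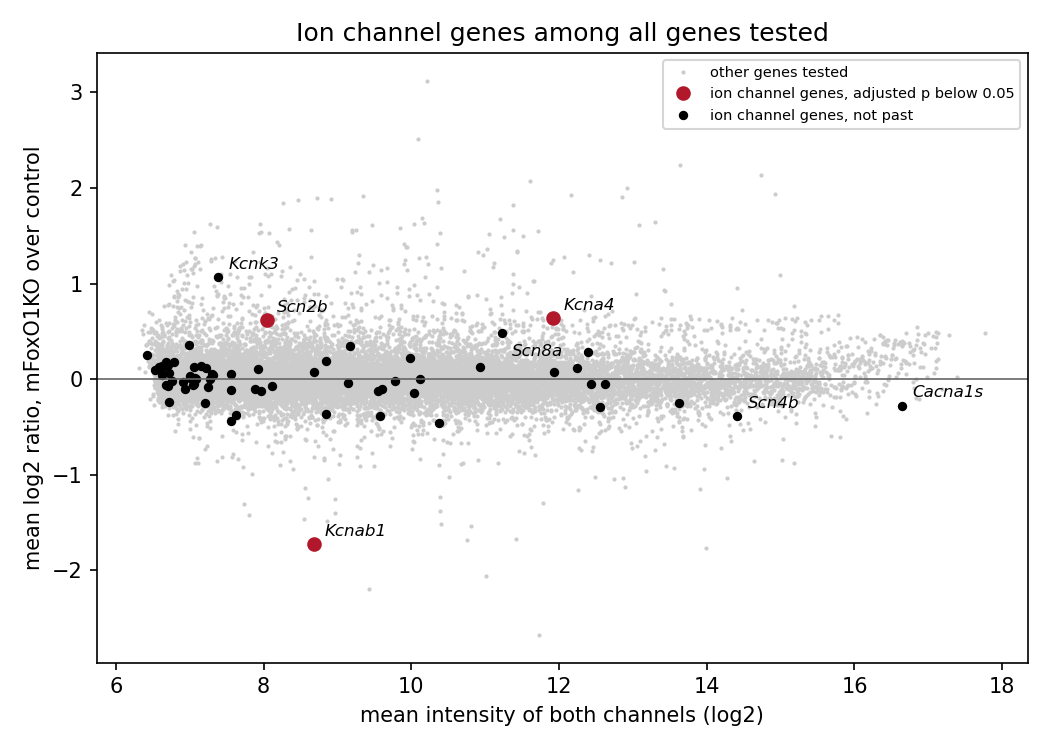
Mean log2 ratio of mFoxO1KO over control (vertical axis) against the mean log2 intensity of both channels (horizontal axis) for 17460 genes (grey). The 68 channel genes are black, or red where the adjusted p was below 0.05. Many channel genes are dim and lie close to 0, and Kcnab1 has the lowest ratio of them.

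Channel genes spread about as widely as the rest of the array, with a median absolute log2 ratio of 0.12 beside 0.11 over all genes. Beyond 1.5-fold there were 4 channel genes, Kcnab1, Kcnk3, Kcna4 and Scn2b, or 5.88% beside 3.33% of all genes. Between any pair of arrays, Pearson's r over the 68 genes was 0.66 to 0.80. This is a description across genes, which are no replicates of each other, on arrays with the same dye layout. Without Kcnab1 and Kcnk3, the 2 genes beyond 2-fold, r was 0.50 to 0.57, close to the 0.51 to 0.54 over all genes.

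Partners of these channels were counted from a list of 61 genes that bind, anchor or regulate them or act beside them in muscle. Of 48 tested, 3 rose, 1 fell and 44 did not pass, or 8.33% past the threshold beside 2.75% of all genes, with a median ratio of 0.01. Nedd4l, a ubiquitin ligase that removes sodium channels from the surface, had 11.57, 11.89 and 11.74 in mFoxO1KO muscle, against 10.97, 11.32 and 11.21 in control muscle. It rose by 0.57 ± 0.04 (limma, adjusted p = 0.0313), and its second probe had 0.43. Rrad, a small GTPase that inhibits L-type calcium channels, had 7.69, 7.36 and 7.57 in mFoxO1KO muscle, against 6.69, 6.77 and 6.81 in control muscle, with a ratio of 0.78 ± 0.20 (adjusted p = 0.0398). Trdn, the triadin of the calcium release complex, had 12.68, 12.63 and 13.01 in mFoxO1KO muscle, against 13.35, 13.46 and 13.45 in control muscle, with a ratio of -0.65 ± 0.20 (adjusted p = 0.0484). Its second probe had -0.27. Without replicate 2 the adjusted p-values of Nedd4l, Rrad and Trdn were 0.141, 0.108 and 0.172, and without replicate 3 they were 0.0649, 0.0726 and 0.0522. Without replicate 1, Nedd4l and Rrad passed and Trdn had 0.0692.

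The number of channel genes past the threshold turned on single arrays. It was 4 of 68 without replicate 1, 2 without replicate 2 and 0 without replicate 3. Over all genes the shares past the threshold in these settings were 2.49%, 0.286% and 0.882%, beside 2.75% with all 3 arrays, so the calls over the whole array moved too. By limma on the 2 arrays left without replicate 3, 154 genes of the whole array passed, in place of 481. Kcnab1 passed in 16 of 19 alternative settings, Kcna4 in 13 and Scn2b in 12, and the sign of each was the same in all 19. Many of these settings leave the ratios of the 3 genes as they were or only drop 1 array, so the sign could not change there. The 19 are thus not separate checks. With arrays centred on their median in place of loess, 5 of 68 channel genes passed, 4 higher and 1 lower, beside 6.9% of all genes. That setting raised the median ratio of all genes to 0.16 and made 95.8% of all calls higher in mFoxO1KO muscle, beside 74.6% with loess. The channel genes' median was then 0.08, below that of all genes. It was above that of all genes with plain subtraction (0.065 beside 0.024), processed signals (0.070 beside 0.022) and the deposited log ratio (0.029 beside -0.019). Some channel genes passed the filter through mFoxO1KO signal alone, such as Kcnj15, which had 0.30 with plain subtraction and 1.28 with the deposited log ratio. The higher channel medians are thus no result.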

How the data were processed

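Muscle RNA (0.2 µg) in 3 samples each of mFoxO1KO and control mice was hybridised in pairs to 3 Agilent arrays. Per the file headers, the deposited files hold median spot and background intensity values as scanned, processed intensity values, a log10 ratio, and flags of other quality measures set by the software. The headers name Feature Extraction 11.5.1.1 and the submitters' processing notes 9.3.2.1. Here median intensities were corrected with normexp (offset 50, which draws ratios of dim genes towards 0) and loess-normalised in limma 3.58.1 under R 4.3.3, with control spots at weight 0 and outlier spots left out. Intensities by muscle also had Aquantile normalisation. The brightest kept probe stood for a gene. Of 39429 probes, 27508 (69.8%) took a symbol by accession from RefSeq (GRCm38.p6). Positions are given for promoter windows alone, on that build, since the array headers name an older one. Ratios were tested against 0 with an intercept-only limma fit (lmFit, eBayes, two-sided), Benjamini-Hochberg adjusted over 17460 genes. The fit was tested on simulated data. Errors are SDs over 3 arrays, whose number limits the precision. Whether the groups overlap is given for single genes, and its share over all genes was not counted. The members, lists and 19 alternatives were chosen with earlier results of these data known. The genes named are those past the threshold, a set of 18 muscle channels, up to 4 per role by smallest p, the 12 largest rises and falls of 1 sign, partners past the threshold or among the 4 of smallest p, and Foxo1. Genes outside that rule, such as Kcnk4 and Cacng6, were chosen after their values were seen. Some genes are not reported here by name.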

Additional observations from a re-analysis of the deposited data

How the results depend on the processing

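Across 19 alternatives none of the 7 channel and partner genes past the threshold changed sign. Many of the 19 kept the same ratios, or dropped 1 array for genes of 1 sign on all 3, so the sign could not change there. The cause of lost or gained calls was not tested. Against 3 channel genes (2 higher, 1 lower), 4 partners, 481 genes in all and a channel median of 0.0083, the values were as follows. With plain background subtraction 1 channel gene was higher, which was Kcnk15, with control signal at background, while Kcna4 and Scn2b had adjusted p-values of 0.0606 and 0.0531. In that setting 2 partners and 264 genes passed, and the median was 0.065. With the deposited log ratio, 1 channel gene passed (1 higher, 0 lower), with 1 partner, 212 genes and a median of 0.029. That gene was Kcnj15, whose control signal was at background and whose bound of 1.09-fold is its plain ratio with loess. Kcnd3, Kcnj15 and Kcnk15, with control signal at background, were among those higher with processed signals. In that setting 8 channel genes passed (5 higher, 3 lower), with 2 partners, 742 genes and 0.070. With median centring it was 5 (4 higher), 8 partners, 1205 genes (1154 higher, 51 lower) and 0.078. Scale normalisation gave 2 lower, 831 genes and a median of 0.00010. Probes above background in both channels left 57 channel genes, of which 0 passed by limma (0 higher, 0 lower) with 0 partners, 55 genes and a median of -0.024, while Kcnab1 then had an adjusted p of 0.0533. No filter gave 6 (3 lower), 747 genes and -0.010, an intensity trend 2 lower, and no background subtraction a median of 0.033. The separate-channel fit with the array as a replicate block gave 10 (5 higher, 5 lower), 14 partners and 2175 genes, and without the pairing 1 (0 higher), 1 partner and 105 genes. Leaving out each replicate gave 0 to 4 channel genes (0 to 3 higher, 0 to 1 lower), 0 to 3 partners, 50 to 434 genes and medians of 0.0089 to 0.024. Kcnab1, Kcna4 and Scn2b had adjusted p-values of 3.52e-05 to 0.0623, 0.00488 to 0.177 and 0.0051 to 0.261 over the alternatives.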
